A study of Homo sapiens with 18 samples.

Results

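PI3, SEMG1, SEMG2, SLPI, WFDC2, WFDC3 and BPIFB1 are 7 genes on chromosome 20 that encode secreted proteins of mucosal surfaces and seminal fluid. They were taken by symbol from a table of 61552 genes, and they were selected on measured values of the same table: the read counts of SEMG1, PI3 and BPIFB1 are nearly lost in cells with mutant IκBα. The level in mutant cells relative to WT cells is therefore described here without a test. RNA was sequenced from HCT116, a human colorectal carcinoma line of epithelial origin. The cells had been edited to express a chosen form of IκBα. This protein binds NF-κB transcription factors and keeps them out of the nucleus, and TNF signalling leads to its breakdown. The edited form was the N108 mutant, the M3 mutant, in which 3 neighbouring residues are changed to alanine, or the wild type (WT). Cells of each genotype were treated with human TNF at 0.1 µg/mL for 40 min or left untreated, which gave 6 groups of 3 libraries. Each genotype is 1 line, so the mutation and other differences between lines cannot be told apart. The labels do not say that replicates were separate cultures, so the p-values cover the spread among these libraries, and that spread may be technical.

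The genes belong to 2 loci. PI3 (elafin) and SLPI encode inhibitors of neutrophil elastase and related serine proteases, each with a WAP (whey acidic protein) domain and with antimicrobial activity. WFDC2 (HE4) and WFDC3 encode further WAP-domain proteins. SEMG1 and SEMG2 encode semenogelins, the gel-forming proteins of semen, and lie between the WAP genes PI3 and SLPI in the same cluster. BPIFB1 encodes a BPI-fold protein secreted by airway and other mucosal epithelia and belongs to a separate gene cluster of the same chromosome.

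In GENCODE 29 on GRCh38, PI3 lies on the plus strand at chr20:45174876-45176544, SEMG1 on the plus strand at chr20:45206997-45209772, SEMG2 on the plus strand at chr20:45221300-45224458 and SLPI on the minus strand at chr20:45252239-45254564. These 4 genes thus span 79.7 kb from the PI3 start to the SLPI end. WFDC2 begins 215 kb beyond SLPI, at chr20:45469706-45481532 on the plus strand, and WFDC3 lies at chr20:45747944-45791932 on the minus strand. BPIFB1 is on the plus strand at chr20:33273480-33309878, 11.9 Mb from PI3. Among the 7 genes, WFDC3 alone overlaps other annotated genes, the pseudogene SPINT5P and the small nuclear RNA gene RNU6ATAC38P, and both had 0 counts in all libraries.

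Promoter sequences from RefSeq (GRCh38.p14, 250 bases before to 50 after the start, 5′ to 3′ on the strand of the gene) were held for 5 of the 7 genes. Those of SEMG1 (chr20:45206783-45207082), SEMG2 (chr20:45221123-45221422) and BPIFB1 (chr20:33282964-33283263) are shown because the semenogelin pair shares sequence while their levels differ, and because BPIFB1 has another locus and a promoter unlike theirs. All are on the plus strand, and capitals mark matches to TATAAA or to a κB-like pattern, GGG and CC separated by any 5 bases.
SEMG1: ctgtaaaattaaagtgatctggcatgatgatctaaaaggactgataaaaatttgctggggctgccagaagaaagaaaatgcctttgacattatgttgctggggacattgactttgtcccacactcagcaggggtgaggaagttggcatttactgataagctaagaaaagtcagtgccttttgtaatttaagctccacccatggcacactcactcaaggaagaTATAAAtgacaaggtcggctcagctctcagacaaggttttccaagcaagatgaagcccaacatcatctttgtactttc
SEMG2: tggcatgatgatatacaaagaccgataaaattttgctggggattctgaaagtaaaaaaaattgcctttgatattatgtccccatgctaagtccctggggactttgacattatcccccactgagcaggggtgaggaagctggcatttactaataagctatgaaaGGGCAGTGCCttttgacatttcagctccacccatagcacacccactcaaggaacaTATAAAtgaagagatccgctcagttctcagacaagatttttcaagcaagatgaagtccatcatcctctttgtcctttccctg
BPIFB1: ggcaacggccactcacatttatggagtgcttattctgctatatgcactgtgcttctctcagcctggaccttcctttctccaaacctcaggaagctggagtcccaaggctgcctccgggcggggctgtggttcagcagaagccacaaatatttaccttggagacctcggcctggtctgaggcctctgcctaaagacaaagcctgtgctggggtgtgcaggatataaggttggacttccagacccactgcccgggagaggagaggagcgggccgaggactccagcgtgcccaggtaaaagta
The SEMG1 and SEMG2 promoters were identical at 75.6% of 320 aligned positions, whereas the other pairs among the 5 promoters reached 43.5% to 53.4%. TATAAA, the core letters of a TATA box, began at -28 relative to the start in SEMG1 and at -32 in SEMG2, and was present in neither WFDC2, WFDC3 nor BPIFB1. The search was for these exact letters, so near matches, such as tataag in BPIFB1, were not counted. Over 35116 promoters of this length, 11.5% held TATAAA on either strand. The κB-like pattern was found on either strand in SEMG2 (at -87), WFDC2 and WFDC3 and in 58.7% of all promoters, and it was not found in the windows of SEMG1 and BPIFB1. The AP-1 pattern TGANTCA was in none of the 5 and in 7.71% of all promoters. GGGCGG, the core of a GC box, was in WFDC2, WFDC3 and BPIFB1 and in 45% of all promoters. No match of a motif overlapped a match of another motif in these 5 windows. For all 5 genes the RefSeq start lies inside the longer GENCODE gene model, furthest inside for BPIFB1. Motif positions are relative to the RefSeq start, and TATAAA in SEMG1 and SEMG2 falls beyond the GENCODE gene start.

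Libraries held 49021907 to 76947190 counts, and 19038 genes passed the filter on low counts. Of the 7 genes, 6 passed, and WFDC2, with 16 counts over all 18 libraries, did not. Because a gene that was high in WT cells passed the filter through that group, these 6 are not a sample of all secreted defence genes. NFKBIA, which encodes IκBα, averaged 276 ± 19.5 CPM (read counts scaled to the library total) with TNF and 30.3 ± 1.82 CPM untreated in N108 cells (SD, n = 3 each). It averaged 966 ± 20.9 and 77.9 ± 1.17 CPM in M3 cells, and 758 ± 19.8 and 91.6 ± 4.57 CPM in WT cells (TNF and untreated in each, SD, n = 3). CXCL8, an NF-κB target that encodes a chemokine, rose with TNF in each line (log2 fold change 6.78 in N108, 7.74 in M3 and 6.11 in WT). The 7 colon epithelial markers were expressed in all groups, and their summed level ranged over 5040 to 5560 CPM in N108, 3970 to 4620 CPM in M3 and 6540 to 7300 CPM in WT libraries. Against WT, 1 of the 7 rose and 5 fell in untreated N108, and 2 rose and 5 fell in untreated M3. Over all genes tested, 20.9% rose and 21.6% fell in N108, and 26.1% rose and 26.8% fell in M3. Of 14 markers of other cell types, CSF3R, KLK2 and PATE1 had 0 counts, the leukocyte gene PTPRC had 1 count, and the summed level was 29.3 to 39.3 CPM in N108, 31.4 to 37.1 CPM in M3 and 20.6 to 28.8 CPM in WT libraries. COL1A1 made up most of that sum (17.2 to 33.2 CPM as group means). Of the 5 tested, COL1A1 rose in both untreated mutants against WT (log2 fold change 0.30 in N108 and 0.47 in M3). The others that were called fell, 2 in N108 and 4 in M3, beside the same shares of all genes. Those that fell were the fibroblast gene COL3A1 (-0.89 and -0.76) and the basal keratin gene KRT14 (-4.25 and -3.64) in both, and PDGFRB (-0.90) and KRT5 (-2.81) in M3. The part of these marker levels in the values below was not tested. In bulk RNA, fewer expressing cells and less RNA per cell cannot be told apart.

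The semenogelin genes were nearly silent in both mutant lines and expressed in WT cells. SEMG1 had 6, 6 and 8 counts with TNF and 11, 13 and 5 counts untreated in the N108 libraries. In M3 it had 0, 2 and 1 counts with TNF and 0 in all 3 untreated libraries. In WT it had 578, 724 and 813 counts with TNF and 790, 640 and 492 counts untreated. The lowest WT library thus lay far above the highest mutant library. Untreated N108 cells held 1.47% of the WT level (95% counting interval 0.984% to 2.12%), and with TNF they held 0.875% (0.533% to 1.35%). With TNF, M3 cells held 0.135% (0.0279% to 0.396%). Untreated M3 had 0 counts, and with 3 counts over the group as the limit it was 586-fold lower than WT. Its interval reached 0.21% of WT. Intervals of this kind cover counting error only, and a fold change at the limit is not a 95% bound.

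SEMG2, the paralogue that begins 11.5 kb beyond the SEMG1 end, was likewise at or near 0 in the mutants and was expressed in WT, at a lower level. It had 0, 0 and 2 counts with TNF and 0, 0 and 1 counts untreated in N108, and 0 counts in all 6 M3 libraries. In WT it had 30, 54 and 55 counts with TNF and 57, 49 and 48 counts untreated. At the limit of 3 counts, M3 was 48.5-fold lower than WT with TNF and 47.0-fold lower untreated (intervals up to 2.57% and 2.65% of WT). N108 held 1.33% (0.160% to 4.90%) with TNF and 0.634% (0.0160% to 3.58%) untreated. SEMG2 came to 5.19% to 9.76% of the SEMG1 level across the 6 WT libraries, on the CPM scale. The semenogelins share some sequence, since 1.93% of the 50-base words of the SEMG1 transcript and 1.56% of those of SEMG2 occur in the other, so some SEMG2 reads may be uncertain, and how many was not measured.

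The elastase inhibitors were also low in the mutants. PI3 had 1, 1 and 12 counts with TNF and 4, 3 and 3 counts untreated in N108. In M3 it had 0 counts in all 3 TNF libraries and 2, 0 and 1 counts untreated. In WT it had 99, 103 and 122 counts with TNF and 76, 54 and 64 counts untreated. All WT libraries lay above all mutant libraries, and the N108 total with TNF came mostly from replicate 3. N108 held 4.0% of the WT level of PI3 with TNF (2.16% to 6.80%) and 5.03% untreated (2.38% to 9.46%). At the limit of 3 counts, M3 was 113-fold lower than WT with TNF (interval up to 1.09% of WT). Untreated, M3 held 1.69% (0.346% to 5.01%).

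SLPI kept enough counts in the mutants for closer comparison. In WT it had the highest level of the 7 per kb of exon, with the exons of all transcripts of a gene merged. N108 libraries had 43, 54 and 43 counts with TNF and 52, 62 and 48 counts untreated. M3 libraries had 7, 3 and 5 counts with TNF and 7, 9 and 7 counts untreated. WT libraries had 986, 1137 and 1330 counts with TNF and 1318, 1157 and 979 counts untreated. The 3 genotypes therefore formed separate steps, with M3 lowest and WT highest. N108 held 3.75% of WT with TNF (3.14% to 4.44%) and 4.58% untreated (3.89% to 5.36%), and M3 held 0.415% with TNF (0.232% to 0.685%) and 0.728% untreated (0.461% to 1.09%).

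BPIFB1, at the other locus, was also nearly silent in the mutants. It had 10, 7 and 9 counts with TNF and 10, 6 and 7 counts untreated in N108, and 3, 4 and 3 counts with TNF and 5, 3 and 4 counts untreated in M3. In WT it had 729, 846 and 998 counts with TNF and 1141, 913 and 732 counts untreated. Every mutant library was far below every WT library. N108 held 0.935% of WT with TNF (0.609% to 1.37%) and 0.806% untreated (0.510% to 1.21%), and M3 held 0.371% with TNF (0.178% to 0.683%) and 0.471% untreated (0.243% to 0.824%). In its transcripts, 0.445% of 50-base words occur in other genes.

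The remaining WAP genes differed from this pattern. WFDC3 had 36, 17 and 21 counts with TNF and 23, 34 and 21 counts untreated in N108, and 34, 25 and 28 counts with TNF and 25, 22 and 16 counts untreated in M3. In WT it had 39, 30 and 39 counts with TNF and 49, 52 and 26 counts untreated. N108 held 63.4% of WT with TNF (46.5% to 86.0%) and 59.97% untreated (44.6% to 80.1%), and M3 held 76.9% with TNF (57.3% to 103%) and 54.2% untreated (39.4% to 73.9%). WFDC2 had 2 and 3 counts in N108, 5 and 5 counts in M3 and 1 and 0 counts in WT, with TNF and untreated in each, so it was at or near the limit of detection in every group.

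Between mutant and WT groups, CPM values did not overlap, with the mutant lower, for 6 of the 6 filtered genes in N108 untreated, where 28.1% of all genes tested did so. The count was 5 of 6 in N108 with TNF (25.5% of all genes; WFDC3 overlapped), 6 of 6 in M3 untreated (30.6%) and 6 of 6 in M3 with TNF (31.4%). Since the genes were picked for this difference, nothing is read from these counts.

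**Figure D1:**
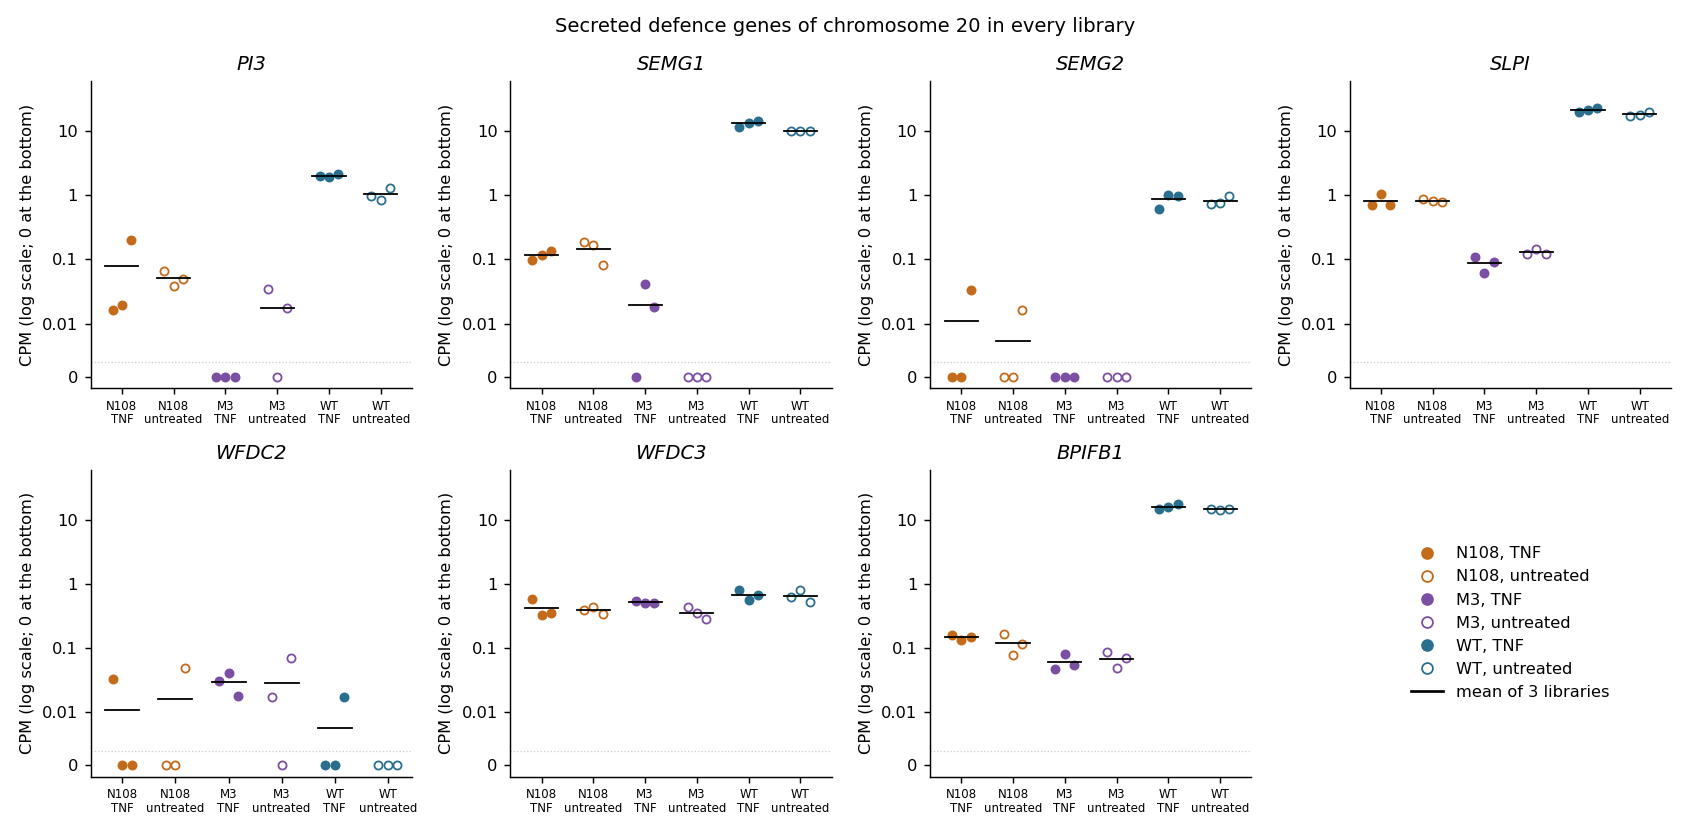
CPM of each gene in every library (points; log axis, with 0 drawn below the dotted line; bars, mean of 3 libraries), with the groups in the order N108, M3 and WT and TNF left of untreated in each. PI3, SEMG1, SEMG2, SLPI and BPIFB1 stand high in the 6 WT libraries alone, WFDC3 lies between 0.280 and 0.798 CPM in all 18 libraries, and WFDC2 is at or near 0.

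**Figure D2:**
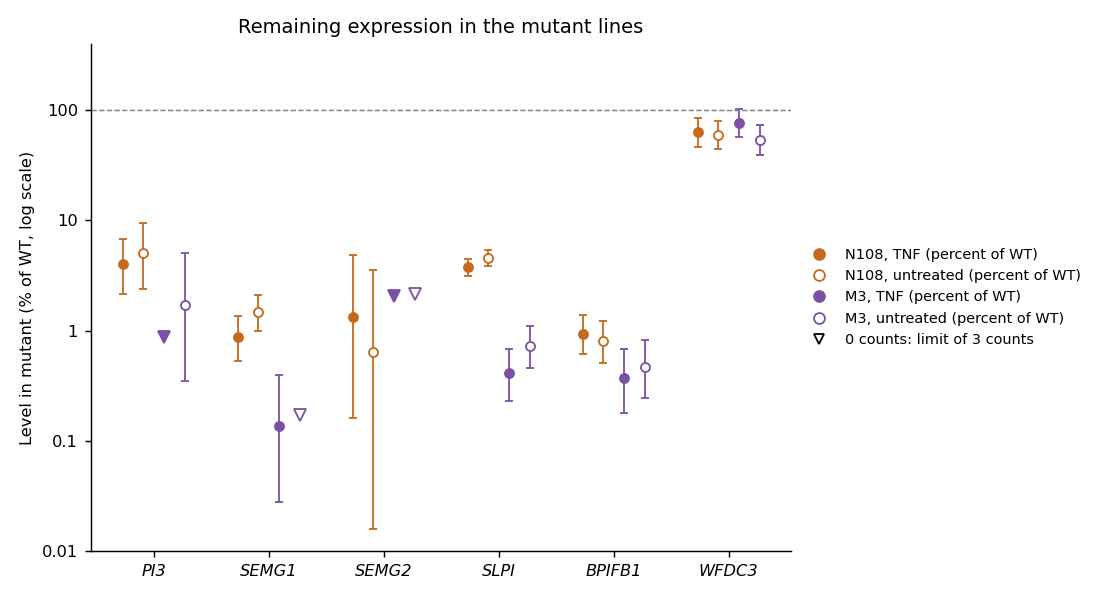
Level in each mutant as a percentage of WT under the same treatment (log axis; bars, 95% counting interval; triangles, limit of 3 counts where the mutant had 0 counts; dashed line, the WT level). Apart from WFDC3, at 54.2% to 76.9%, the values shown as circles lie between 0.135% and 5.03%.

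In WT cells the order per kb of merged exons was the same with and without TNF. The merged length covers 13 transcripts for WFDC3 and 1 each for SEMG1 and SEMG2, so the order depends on this choice of length. SLPI stood at 36.0 ± 2.63 CPM per kb with TNF and 30.4 ± 2.25 untreated, followed by SEMG1 at 7.91 ± 0.749 and 5.98 ± 0.118, BPIFB1 at 5.16 ± 0.415 and 4.66 ± 0.121 and PI3 at 3.5 ± 0.174 and 1.78 ± 0.398 (SD, n = 3). SEMG2 at 0.419 ± 0.106 and 0.398 ± 0.0612 and WFDC3 at 0.282 ± 0.0484 and 0.270 ± 0.0583 CPM per kb came next, and with TNF the libraries of these neighbours overlapped. WFDC2 was last. The mutants had another order. In untreated N108, SLPI stood at 1.38 ± 0.0762 CPM per kb and WFDC3 at 0.163 ± 0.0208, above PI3 and SEMG1 (0.0897 ± 0.0246 and 0.0874 ± 0.0334), which overlapped. In M3 with TNF, WFDC3 was first at 0.215 ± 0.00572 CPM per kb and SLPI second at 0.146 ± 0.0407, and their libraries did not overlap.

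TNF for 40 min raised SEMG1, PI3 and SLPI modestly in WT cells. This contrast did not choose the genes, and it was tested with edgeR's quasi-likelihood test, two-sided, with Benjamini-Hochberg adjustment over all 19038 genes. PI3 had 2.01, 1.92 and 2.12 CPM with TNF, against 0.979, 0.829 and 1.28 CPM untreated, a log2 fold change of 0.99 (SE 0.233, adjusted p = 0.011). SEMG1 had 11.8, 13.5 and 14.2 CPM with TNF, against 10.2, 9.82 and 9.84 CPM untreated, a log2 fold change of 0.40 (SE 0.0899, adjusted p = 0.0063). For both genes the lowest TNF library lay above the highest untreated library. SLPI had 20.04, 21.2 and 23.1 CPM with TNF, against 17.0, 17.8 and 19.6 CPM untreated, a log2 fold change of 0.25 (SE 0.0741, adjusted p = 0.046). Its groups did not overlap either, but the gap was narrow. Thus 3 of 6 genes were called higher, where 2.03% of all genes tested were.

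BPIFB1 had 14.8, 15.8 and 17.4 CPM with TNF, against 14.7, 14.0 and 14.6 CPM untreated, and did not pass the test (log2 fold change 0.15, SE 0.0732, adjusted p = 0.28) although the TNF libraries were the higher 3. Groups that did not overlap, with TNF higher, were thus seen for 4 of 6 genes and for 16.1% of all genes tested. SEMG2 had 0.610, 1.01 and 0.957 CPM with TNF, against 0.734, 0.752 and 0.960 CPM untreated, and its groups overlapped (log2 fold change 0.10, SE 0.260, adjusted p = 0.89). For WFDC3 the log2 fold change was 0.04 (SE 0.226, adjusted p = 0.95). In the WT libraries PI3 came to 9.06% to 10.0% of the SLPI level with TNF, against 4.67% to 6.54% untreated, on the CPM scale. Whether the responses of PI3 and SLPI differed was not tested.

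These calls rest on few libraries. Without replicate 3 of the WT TNF group none of the 6 genes was called (adjusted p = 0.075 for SEMG1, 0.069 for PI3 and 0.33 for SLPI), and without replicate 1 or replicate 2 of the untreated WT group SEMG1 alone was (adjusted p for PI3 0.064 and 0.093). The SLPI call was lost under 14 of 26 alternatives, among them DESeq2's Wald test (adjusted p = 0.06).

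**Figure D3:**
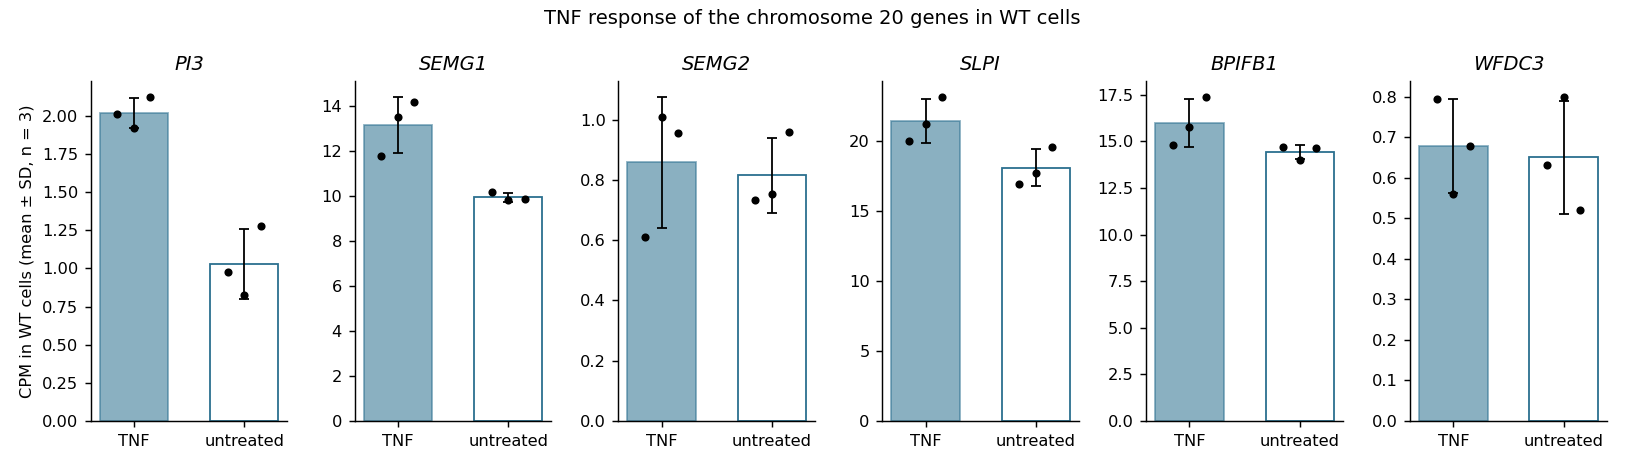
CPM in WT cells with TNF (filled bars) and untreated (open bars), as mean ± SD over 3 libraries with each library as a point; each panel has its own axis from 0. PI3 averaged 2.02 CPM with TNF and 1.03 CPM untreated, and SEMG1 and SLPI show smaller differences without overlap.

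In the mutants no TNF response of these genes was called. In N108, 0 of 6 genes passed edgeR's test, 0 had an unadjusted p under 0.05, and the groups overlapped for each gene, while 1.2% of all genes tested were called and 14.8% did not overlap. SLPI in N108 had 0.701, 1.04 and 0.716 CPM with TNF, against 0.873, 0.808 and 0.785 CPM untreated. In M3, 0 of 6 were called, while 1.38% of all genes were called. SEMG1 had an unadjusted p under 0.05 by edgeR in M3, on 3 counts with TNF and 0 untreated. SEMG2 had 0 counts in M3 under both conditions, and PI3 had 0 with TNF and 3 untreated. At such counts the test could not show a response of these genes, so nothing is read from 0 of 6 in M3 against that share. DESeq2's Wald test likewise called 0 in each mutant. SLPI in M3 had 0.110, 0.0615 and 0.0904 CPM with TNF, against 0.121, 0.146 and 0.123 CPM untreated, so that every TNF library was the lower one, and WFDC3 had 0.533, 0.513 and 0.506 CPM with TNF, against 0.433, 0.358 and 0.280 CPM untreated. These 2 of 6 did not overlap, against 15.9% of all genes, and neither passed the test (adjusted p = 0.79 for SLPI and 0.55 for WFDC3).

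Counts this low allow wide ranges. The TNF to untreated ratio in N108 was 0.985 for SLPI (95% counting interval 0.780 to 1.24), 0.786 for SEMG1 (0.421 to 1.44), 1.60 for PI3 (0.659 to 4.02) and 1.29 for BPIFB1 (0.707 to 2.36), set beside 1.20, 1.32, 2.01 and 1.11 in WT. The test of the difference itself, the interaction of TNF with genotype, called 0 of 6 genes for N108 and 0 of 6 for M3, where 2.62% and 0.315% of all genes were called. No gene of the 6 had an unadjusted p under 0.05 in these interactions, and DESeq2 called none. For SLPI, SEMG1, PI3 and BPIFB1 the N108 interval held both 1 and the WT ratio. At this depth a response of the WT size could thus not be told from none in N108. In M3, SEMG1, SEMG2 and PI3 had too few counts for the interaction test to decide.

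SLPI, which passed the filter with the mutant libraries alone, differed between the mutant lines, with more left in N108. SLPI was higher in N108 than in M3, with 0.701, 1.04 and 0.716 CPM in N108 against 0.110, 0.0615 and 0.0904 CPM in M3 under TNF (log2 fold change 3.15, SE 0.283, adjusted p = 1.1e-09). Untreated, it had 0.873, 0.808 and 0.785 CPM in N108, against 0.121, 0.146 and 0.123 CPM in M3 (log2 fold change 2.63, SE 0.250, adjusted p = 3.6e-09). The groups were far apart under both conditions, and the summed counts gave ratios of 9.04 (5.30 to 16.6) and 6.29 (4.05 to 10.2). SEMG1 had 0 counts in untreated M3, and at the limit of 3 counts it was 8.63-fold higher in N108 (interval from 6.58, adjusted p = 2.3e-05 by edgeR). With TNF the ratio of N108 to M3 was 6.46 (1.92 to 34.0, adjusted p = 0.0038). SEMG1 passed the filter through the WT group.

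PI3 and BPIFB1 were called in the TNF groups alone, in a fit whose filter kept them through the WT group. PI3 with TNF had 0 counts in M3, and at the limit of 3 counts it was 4.52-fold higher in N108 (interval from 3.21, adjusted p = 0.0074). Of its 14 counts, however, 12 were in N108 replicate 3. Without that replicate the 2 counts left are under the limit, no ratio can be given, and the adjusted p was 0.12. BPIFB1 with TNF had 0.163, 0.135 and 0.150 CPM in N108, against 0.0470, 0.0820 and 0.0543 CPM in M3 (log2 fold change 1.30, SE 0.425, adjusted p = 0.027), and its adjusted p reached 0.075 to 0.11 when N108 replicate 1, M3 replicate 1 or M3 replicate 3 was left out. Untreated, the N108 to M3 ratio was 2.98 (0.766 to 16.8) for PI3 and 1.71 (0.817 to 3.78) for BPIFB1, and neither was called (adjusted p = 0.30 and 0.24). Whether these differences changed with TNF was not tested. WFDC3 did not pass in either condition, with ratios of 0.824 (0.596 to 1.14) with TNF and 1.11 (0.783 to 1.57) untreated. By edgeR, 2 of 6 genes were higher in N108 untreated, where 16.4% of all genes were, and 4 of 6 with TNF, where 20% were, and none was lower. The semenogelins, PI3 and BPIFB1 passed the filter through the WT group. With the N108 and M3 libraries alone, SLPI and WFDC3 were the 2 genes left, and SLPI was called in each condition. Nothing is therefore read from these counts against the shares of all genes, nor from the calls of SEMG1, PI3 and BPIFB1.

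The tested protein-coding genes around the cluster did not show losses of this size. Between 700 kb before and 1000 kb after the SEMG1 start, 27 other protein-coding genes were tested. In untreated N108 against WT, 6 of these 27 rose and 8 fell, with log2 fold changes from -0.62 (NEURL2) to 0.66 (MMP9, a secreted gelatinase), where 20.9% of all genes rose and 21.6% fell. In untreated M3 against WT, 3 rose and 9 fell, from -0.50 (SNX21) to 0.52 (MMP9), where 26.1% and 26.8% of all genes did. None changed beyond 2-fold. The nearest tested protein-coding genes on each side were STK4, a Hippo pathway kinase, and MATN4, a matrix protein gene. STK4 rose slightly in N108 (log2 fold change 0.17, adjusted p = 0.0059) and had 0.04 in M3 (adjusted p = 0.53), and MATN4 had -0.19 in N108 (adjusted p = 0.47) and -0.45 in M3 (adjusted p = 0.071). PIGT, which encodes a GPI transamidase subunit, lies before WFDC2 (0.18 in N108, adjusted p = 0.031, and 0.11 in M3, adjusted p = 0.15). DNTTIP1, which starts next to WFDC3 on the other strand, fell in N108 (-0.13, adjusted p = 0.040) and M3 (-0.36, adjusted p = 1.1e-06).

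A transcribed pseudogene closer to the semenogelins was lower in M3. ENSG00000283142, at -69.3 kb from the SEMG1 start, had 18 counts with TNF and 34 untreated in N108, 8 and 4 in M3, and 33 and 64 in WT, summed over 3 libraries each. It fell in M3 against WT, by a log2 fold change of -3.74 untreated (SE 0.620, adjusted p = 1.1e-05) and -2.07 with TNF (adjusted p = 0.0051). In N108 it had -0.93 (adjusted p = 0.063) and -0.98 (adjusted p = 0.12). CCN5, a protein-coding gene of the same window that did not pass the filter, had 3 and 0 counts in N108, 0 and 1 in M3, and 11 and 19 in WT (TNF and untreated).

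Around BPIFB1, 15 other protein-coding genes were tested in the same span, of which 0 rose and 6 fell in untreated N108 and 0 rose and 7 fell in untreated M3, beside the 20.9% and 21.6% of all genes that rose and fell in N108 and the 26.1% and 26.8% in M3. Of these 15, 1 changed beyond 2-fold: EFCAB8, which fell in M3 (log2 fold change -1.24, adjusted p = 0.0071) and had -0.56 in N108 (adjusted p = 0.19), at group means of at most 0.283 CPM. CDK5RAP1, the nearest tested protein-coding gene on the other side and an RNA modification enzyme, had -0.08 in both mutants (adjusted p = 0.22 in N108 and 0.23 in M3).

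**Figure D4:**
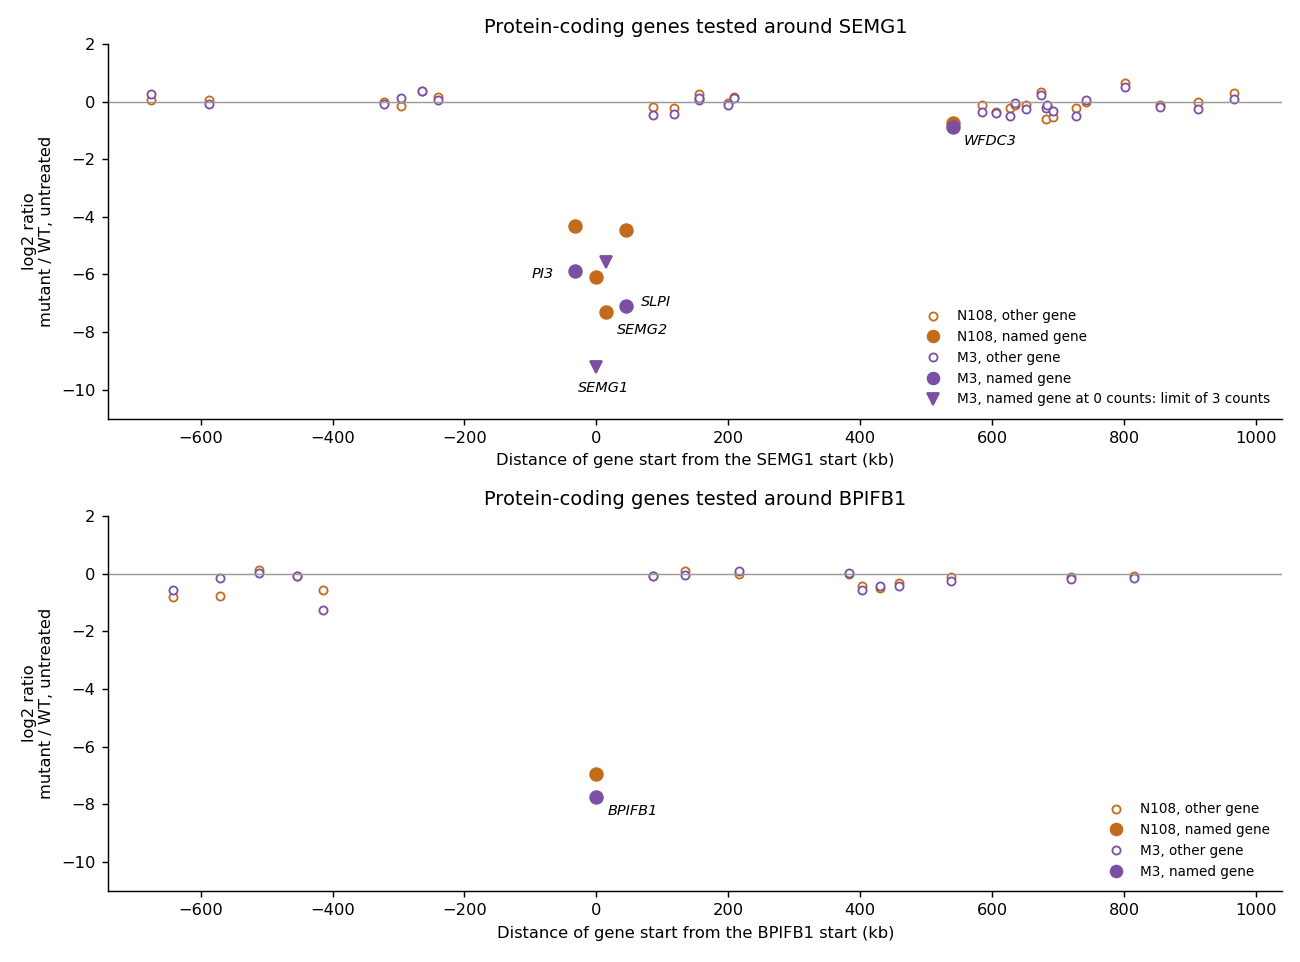
log2 ratio of mutant to WT in untreated cells for the tested protein-coding genes around SEMG1 (top) and BPIFB1 (bottom), by distance of gene starts in kb; filled symbols are the chromosome 20 genes described here, with triangles for the limit of 3 counts where M3 had 0 counts. The other genes lie between -1.24 and 0.66, while PI3, SEMG1, SEMG2, SLPI and BPIFB1 lie well below them.

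The close relatives at the same loci were too low to be tested. Of 12 other WFDC and SPINT genes of the cluster, 0 passed the filter, and totals over 18 libraries ranged from 0 to 40 counts. Their summed level was 0.0833 to 0.212 CPM with TNF and 0.117 to 0.134 CPM untreated in N108, 0.0205 to 0.0362 and 0.0488 to 0.105 CPM in M3, and 0.187 to 0.305 and 0.258 to 0.420 CPM in WT libraries. The untreated sums did not overlap between the genotypes, with WT highest, whereas with TNF the N108 and WT sums overlapped. Of all genes tested, untreated, 28.1% did not overlap with N108 below WT, 30.6% with M3 below WT and 22.5% with N108 above M3. Nothing is read from sums of so few counts. WFDC5, for example, had 4 and 2 counts in N108, 0 and 1 in M3 and 8 and 20 in WT, and WFDC12 had 3 and 2 in N108, 1 and 3 in M3 and 13 and 13 in WT (TNF and untreated, summed over 3 libraries). WFDC10A, with the most counts of the 12, had 6 and 13 in N108, 3 and 6 in M3 and 4 and 8 in WT, so N108 lay above WT. Of 9 other BPI-fold genes, 0 passed, with totals of 0 to 25 counts. Among BPIFB1 and these 9 genes, BPIFB1 alone was thus tested. Among genes between and around the WAP cluster, SDC4, which encodes the heparan sulphate proteoglycan syndecan-4, rose with TNF in every line (log2 fold change 1.17 in N108, 1.58 in M3 and 1.20 in WT, adjusted p at most 1.5e-15).

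Secreted defence genes on other chromosomes, 14 of 39 of them tested, showed falls and rises in the untreated mutants, where 20.9% of all genes rose and 21.6% fell in N108 and 26.1% rose and 26.8% fell in M3. In N108 against WT, 2 rose and 6 fell (median log2 fold change -0.99, against 0.01 for all genes tested), and in M3 2 rose and 6 fell (median -0.26, against 0.00). Some of the 14 passed the filter mainly through 1 genotype. Untreated TFF2 averaged 0 CPM in N108 and M3 and 0.173 CPM in WT, while REG4 averaged 0.195, 0.159 and 0.0384 CPM. These counts and medians thus depend on the filter, and nothing is read from them against all genes. LCN2, the siderophore-binding protein lipocalin-2, averaged 4.17 ± 0.128 CPM in N108, 0.440 ± 0.157 CPM in M3 and 27.2 ± 1.04 CPM in WT cells (SD, n = 3), with log2 fold changes of -2.70 (adjusted p = 5.2e-20) and -5.95 (adjusted p = 2e-24). Like SLPI, LCN2 was higher in untreated N108 than in M3 (log2 fold change 3.25, adjusted p = 1e-15). LYZ, which encodes lysozyme, averaged 0.113 ± 0.0202 CPM in N108, 0.207 ± 0.113 CPM in M3 and 2.67 ± 0.251 CPM in WT cells, and fell in both (adjusted p = 2.2e-14 and 1.9e-13). C3, complement component 3, fell (log2 fold change -1.51 and -2.03, adjusted p = 1.5e-09 and 1.1e-11), and ANG, a secreted ribonuclease, rose (0.56 and 0.72, adjusted p = 0.00043 and 1.3e-05). CCL20, a chemokine with antimicrobial activity, was the gene of this list called with TNF, and rose in N108, M3 and WT (adjusted p at most 3.7e-13).

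Protease inhibitors outside the cluster were mixed, with 5 rising and 7 falling of 18 tested in untreated N108 and 5 rising and 6 falling in M3, beside the same shares of all genes. CSTA, the cysteine protease inhibitor cystatin A, fell in M3 (log2 fold change -3.57, adjusted p = 2.7e-14). A2M, a broad protease inhibitor, rose in M3 (3.27, adjusted p = 1.2e-09), at 1.07 ± 0.194 CPM against 0.106 ± 0.0329 CPM in WT (SD, n = 3). A list of proteases and transglutaminases, enzymes that cleave or crosslink such secreted proteins, also held F2RL1, which encodes a receptor. Of the genes of this list 16 were tested, and 3 rose and 12 fell in each untreated mutant. Over all genes tested, 20.9% rose and 21.6% fell in N108, and 26.1% rose and 26.8% fell in M3. TGM2, a transglutaminase, fell, with log2 fold changes of -2.15 in N108 and -2.82 in M3 (adjusted p = 1.8e-22 and 5e-25), and PRSS23, a secreted serine protease, fell as well (-1.78 and -2.99, adjusted p = 8.9e-20 and 3.4e-24). PRSS3, a trypsin, rose by 0.66 and 0.78 on the log2 scale (adjusted p = 1.3e-07 and 3.8e-09).

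Many other genes followed the same library pattern. Among 13496 candidates with at least 1 CPM in their highest group, Pearson's r of log2 CPM with SLPI over the 18 libraries was above 0.95 for 525 genes, with SEMG1 for 446, with BPIFB1 for 401 and with PI3 for 220. The libraries share 3 genotypes, so these values mainly describe a common difference of WT from mutants and carry no test. The genes most like SLPI were KRT80, PRSS23, FRMD4B, BCAR3 and SH3BP4 (r from 0.997 to 0.998). Those most like SEMG1 were CDIN1, TGM2, TBC1D9, SEMA3A and SEMA3C (0.994 to 0.995), and those most like BPIFB1 were SECTM1, PLEKHS1, MEIS2, ANXA3 and PTS (0.995 to 0.997). PI3 was most like RBM47, FRMD3, PTPN22, ALDH1A3 and COPS4 (0.977 to 0.981). PLEKHS1 differed by more than BPIFB1, at 0.232 CPM in N108, 0.0969 CPM in M3 and 46.4 CPM in WT cells as untreated group means. Of these 20 genes, TGM2 alone lies on chromosome 20.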

How the data were processed

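Per the labels, total RNA of 18 libraries was read as 50 bp pairs. The authors deposited raw read counts per gene. Per the submitters' processing notes, tools were Trim Galore 0.6.6, STAR 2.7.8, featureCounts (Subread 2.0.1) and DESeq2 1.38.3, with hg38. For the counting step, annotation and strandedness were not given in the sources used here. A deposited normalized table was not used. The counts were tested with edgeR 4.0.16 (R 4.3.3): filterByExpr (minimum count 10; 99.97% of counts kept), TMM scaling, 1 robust quasi-likelihood model of 6 group means (12 residual degrees of freedom), Benjamini-Hochberg over 19038 genes, threshold 0.05. SEs were taken as |log2 fold change| divided by √F. Levels are CPM from TMM-scaled totals. Positions and exon lengths, merged over all transcripts of a gene, are from GENCODE 29. Ratios come from summed counts with exact 95% intervals and a limit of 3 counts per group. Replicates differed by more than sampling noise (chi-square per degree of freedom 3.43 to 23.6). The members and lists were chosen with earlier results of these data known. Named were the 7 genes, NFKBIA, CXCL8, the nearest tested neighbours, the largest changes of each list (up to 3 a direction, at least 1 CPM) and the 5 genes most alike. SNX21, NEURL2 and MMP9, the extremes of a window, ENSG00000283142, CCN5, WFDC5, WFDC12 and WFDC10A were chosen after values were seen. So were TFF2, REG4, the named markers of other cells and LCN2's difference between mutants. Scripts were tested on simulated data.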

Additional observations from a re-analysis of the deposited data

How the results depend on the processing

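Counts of genes called out of the 6 were recomputed with DESeq2 1.42.0, DESeq2 size factors, other low-count filters, removal of a GC trend, the groups of each comparison alone and each library left out. With a replicate block, or the block and GC removal, the counts kept their values (3 for TNF in WT, 0 for TNF in N108 and M3, 2 and 4 for N108 against M3 untreated and with TNF, 0 for the interactions). Same-numbered libraries did not deviate together (r from -0.147 to 0.103 over 45 pairs), so no shared effect of the replicate number was seen. The labels do not say whether same-numbered libraries were handled together, and these values cannot show it. With only the groups of a comparison, N108 against M3 gave 1 called gene untreated and 1 with TNF, because 2 of the genes then passed the filter. Leaving out a library gave 0 to 3 called for TNF in WT and 3 to 4 for N108 against M3 with TNF. It did not move the other 5 counts. No called difference changed direction, whereas a difference that was not called could. For example, PI3 in N108 averaged 0.0785 CPM with TNF and 0.0518 CPM untreated. Without TNF replicate 3, the TNF libraries left had 0.0163 and 0.0193 CPM, below the untreated mean. A smaller prior count moved 18 of 28 log2 CPM differences of mutant against WT by more than the replicate spread, so percentages from summed counts are given instead. Low counts limit every statement on SEMG2, PI3 and WFDC2 in the mutants.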
